A study of Mus musculus with 16 samples.

Results

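The Mef2 loci are 3 stretches of the mouse genome around the genes Mef2a, Mef2c and Mef2d, in which the deposited binding sites of RUNX1, MyoD, c-Jun and MyoG are described here. Their members are the peaks, meaning stretches where a factor was called as bound, that overlapped fixed windows of the build mm9. The windows were chr7:74330000-74570000 for Mef2a (240 kb), chr13:83590000-83860000 for Mef2c (270 kb) and chr3:87890000-88010000 for Mef2d (120 kb). They held 108 of 193303 peaks on chromosomes 1 to 19 and X, with 38 at Mef2a, 33 at Mef2c and 37 at Mef2d. The windows came from gene positions and not from peak values. They had been chosen with earlier results of these data known.

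Binding was mapped by chromatin immunoprecipitation and sequencing (ChIP-seq) in primary cells grown from satellite cells, the resident stem cells of skeletal muscle, from the gastrocnemius muscles of wild-type C57BL/6 mice, which were 2 to 3 weeks old. Proliferating myoblasts on day 3 of culture were used for RUNX1, MyoD and c-Jun. MyoG was mapped in myotubes, 24 hours after the switch to a low-serum medium with insulin that induces differentiation, on day 4 of culture. Each factor had 2 ChIP samples and 2 control samples, 16 samples in all, with rabbit non-immune serum as the RUNX1 control, mouse IgG for MyoD and MyoG, and rabbit IgG for c-Jun. RUNX1 was precipitated with an in-house antibody and the other 3 factors with commercial ones. All groups shared the strain and the muscle of origin, and no group carried a mutation or a transgene. The labels call the ChIP experiments biological replicates and do not say how many animals each culture came from.

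Each factor had 1 deposited peak list, and the MyoG list was identified by elimination, since its name is abbreviated. The lists keep neither replicates nor reads, so no spread between cultures and no test over samples can be given, and the depth is unknown. Each peak carried a score that the authors' software wrote, from 50.01 to 3233 in every list, with many peaks tied at exactly 3100. Scores are used only to rank peaks within a list. The rank printed below is the share of the whole list with a score at or above that of the peak, so a small percentage means a strong peak. Where no peak was listed, binding may still have lain below the calling limit.

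The Mef2 genes encode MADS-box transcription factors that bind AT-rich sites in muscle enhancers. MEF2 proteins act together with the basic helix-loop-helix factors MyoD and MyoG on many muscle genes, and Mef2 genes are themselves known targets of these factors in development. RUNX1 is a runt-domain factor, and c-Jun is a subunit of AP-1, a dimeric factor linked to growth signals. MyoD acts in myoblasts as a lineage factor, whereas MyoG acts as cells fuse and differentiate.

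No sequence of mm9 was used, so the peaks have no letters here and cannot be placed in exons, introns or promoters. The RefSeq table of the later build GRCm38.p6 gives the gene order: Lysmd4 lies next to Mef2a, Iqgap3 next to Mef2d and the noncoding Gm33317 next to Mef2c. A peak of a window can thus belong to a neighbour. RefSeq's promoter table held 1 start site for Mef2a, 1 for Mef2d and 3 for Mef2c. The 250 bases before each start were searched on both strands for 3 motifs. These were CANNTG, the general E-box pattern of basic helix-loop-helix factors, TGANTCA, a loose AP-1 pattern with any middle base, and TGTGGT, the RUNX core. The promoters of Mef2a and Mef2d and that of Mef2c start site 2 held no match to the 3 motifs. Those of Mef2c start sites 1 and 3 did, and they are printed because they are the member promoters with such letters. Both are on the plus strand of GRCm38.p6, and capitals mark the matches.
Mef2c start site 1: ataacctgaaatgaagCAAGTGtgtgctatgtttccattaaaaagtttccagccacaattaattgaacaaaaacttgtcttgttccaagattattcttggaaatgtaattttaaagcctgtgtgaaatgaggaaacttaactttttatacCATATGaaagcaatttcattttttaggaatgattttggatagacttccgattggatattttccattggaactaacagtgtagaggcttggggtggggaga
Mef2c start site 3: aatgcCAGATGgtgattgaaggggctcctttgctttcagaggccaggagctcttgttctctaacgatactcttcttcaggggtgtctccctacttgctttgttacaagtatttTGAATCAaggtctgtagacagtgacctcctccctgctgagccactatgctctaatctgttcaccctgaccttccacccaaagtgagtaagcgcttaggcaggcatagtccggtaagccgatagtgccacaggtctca
Start site 1 had E-box letters beginning 234 and 100 bases before the start. Start site 3 had E-box letters beginning 245 bases before the start. Its match to the loose AP-1 pattern, TGAATCA with A in the middle, began 137 bases before it. Of 32851 promoters in the table, 66.2% held CANNTG, 6.75% held TGANTCA and 14.0% held TGTGGT in the same span. The narrower E-box forms CAGCTG and CAGGTG stood in 13.0% and 17.2% of them, and in none of the Mef2 promoters. The matches marked above are letters in a window, and whether a peak covers them is not known.

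By peaks per Mb of window, which depends on where each window ends, Mef2d was the most densely bound locus of the 3. It held 9 RUNX1, 8 MyoD, 8 c-Jun and 12 MyoG peaks in 120 kb, or 308 peaks per Mb over the 4 lists. The whole lists together held 73.3 peaks per Mb. When the chromosomes, stretches without genes included, were cut into 21956 windows of 120 kb, 3.85% of them held at least as many peaks as Mef2d. For single lists that share was 4.51% for RUNX1, 6.27% for MyoD, 4.28% for c-Jun and 5.26% for MyoG. The excess over the list mean was thus similar for the 4 factors, from 3.83 times for MyoD to 4.62 times for RUNX1.

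Mef2a held 10 RUNX1, 9 MyoD, 8 c-Jun and 11 MyoG peaks, 158 per Mb. Of 10972 windows of 240 kb, 16.3% held at least as many peaks, and 14.0%, 17.9%, 19.2% and 20.3% did so for RUNX1, MyoD, c-Jun and MyoG in turn. Mef2c held 4 RUNX1, 8 MyoD, 9 c-Jun and 12 MyoG peaks, 122 per Mb. At least as many peaks stood in 23.9% of 9755 windows of 270 kb, and in 40.4% for RUNX1, 25.1% for MyoD, 18.6% for c-Jun and 20.9% for MyoG. Counts at least as high as those of Mef2a and Mef2c were therefore not rare in the genome. Both still stood above the median window, which held 10 peaks at 240 kb and 11 at 270 kb. Their densities were 2.16 and 1.67 times the mean of the lists. RUNX1 at Mef2c was the 1 count below its list's mean density, at 0.913 times.

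**Figure D1:**
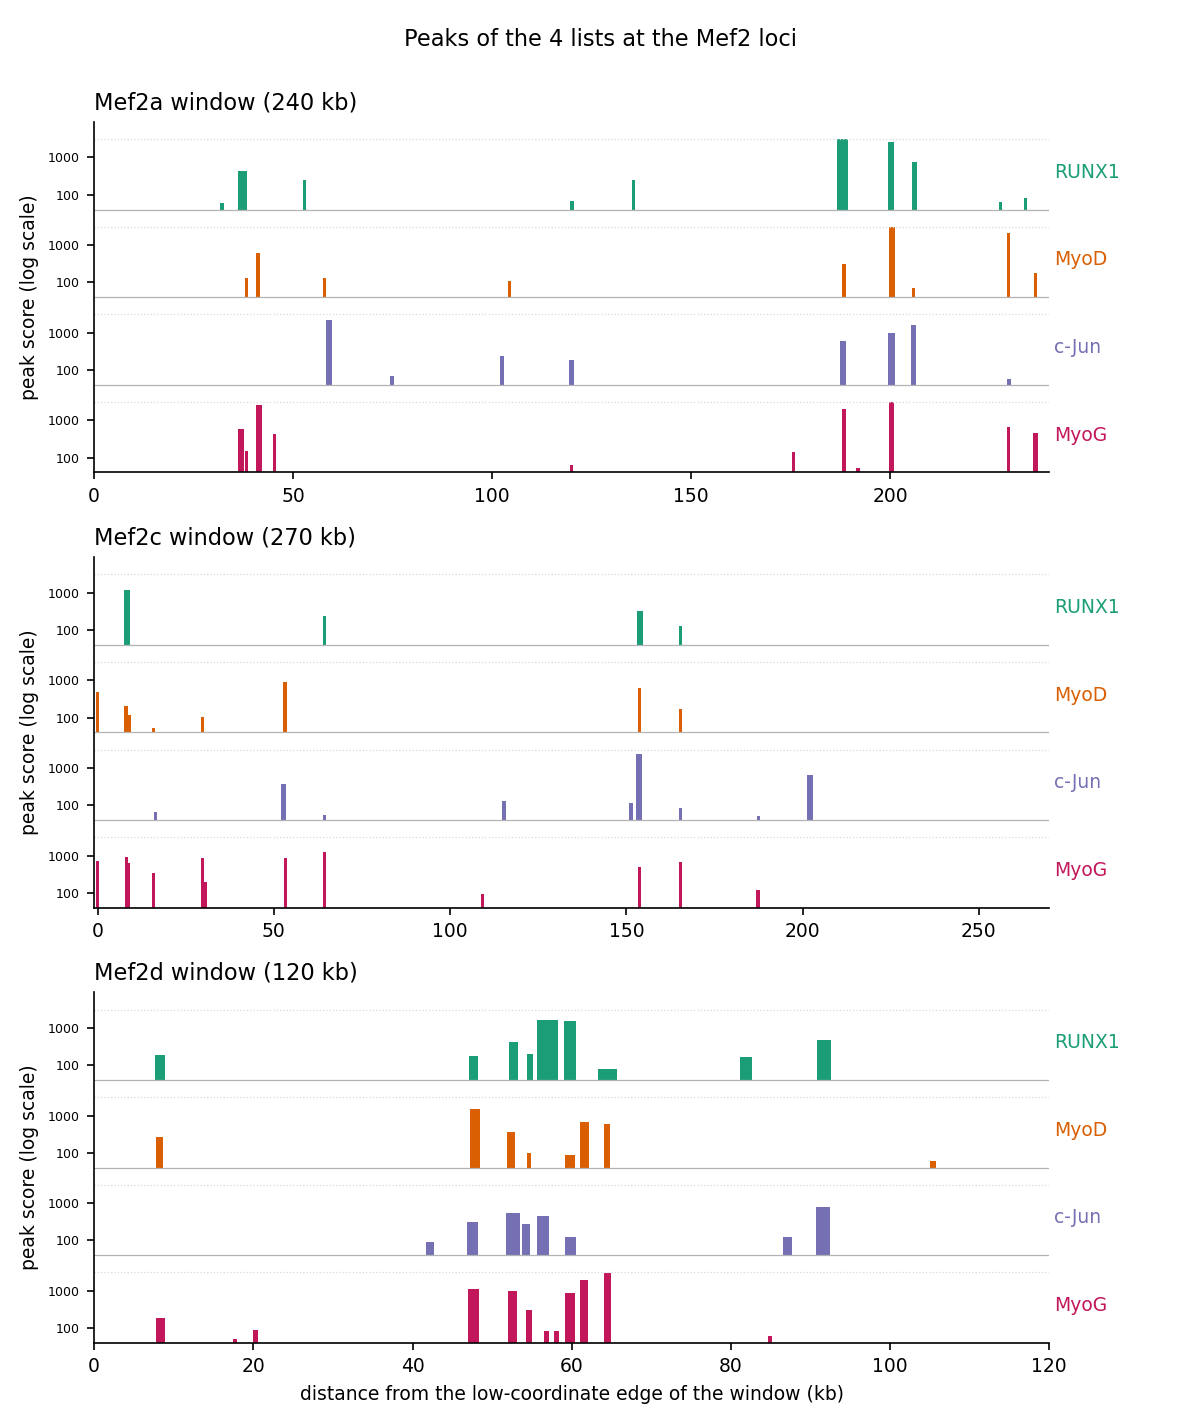
Peaks of the 4 lists at the Mef2a, Mef2c and Mef2d windows. The horizontal axis is the distance from the low-coordinate edge of each window in kb, bar height is the peak score on a log scale that starts at 40, the dotted line marks 3100, and narrow peaks are drawn at a minimum width. Mef2d peaks crowd into the middle of the window, the 3 bars that reach 3100 stand between 188.1 and 200.4 kb at Mef2a, and the last 67.1 kb of the Mef2c window are empty.

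The plot of peaks by position shows how differently the loci were laid out. Merging the 108 peaks wherever they overlapped by at least 1 bp gave 20 regions at Mef2a, 14 at Mef2c and 16 at Mef2d. Neighbouring regions lay a median of 4.37 kb apart at Mef2a, 10.2 kb at Mef2c and 2.00 kb at Mef2d. At the window edges, the nearest peak outside Mef2a was a c-Jun peak scoring 232, 0.217 kb past the high edge, and the last peak inside was a MyoG peak scoring 444. The nearest peak outside Mef2d was a MyoD peak scoring 150.4, 0.202 kb below the low edge, and the first inside was a RUNX1 peak scoring 183. The first Mef2c region straddled the low edge and was counted, with MyoG at 708, and the nearest peak outside, also MyoG, scored 596 at 51.0 kb from that edge.

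Across the 3 loci, 8 of the 50 regions (16.0%) held all 4 factors, against 10.7% of 99548 regions in the whole lists. There were 2 at Mef2a, 2 at Mef2c and 4 at Mef2d. At least 2 factors met in 27 of the 50 regions (54.0%), close to the 51.7% of all regions. In regions merged from the 3 myoblast lists alone, 9 of 42 (21.4%) held RUNX1, MyoD and c-Jun, against 13.9% of 83179. These were 3 of 17 at Mef2a, 2 of 12 at Mef2c and 4 of 13 at Mef2d. When peaks were joined only by centres within 150 bp, 1 such region was left at each locus. That of Mef2c was joined through RUNX1, since its MyoD and c-Jun centres lay 167 bp apart.

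In a region of Mef2a at chr7:74529411-74531246, all 4 factors ranked high together. There MyoD and MyoG both scored 3100, a value reached or passed by 1.90% of the MyoD list and 1.24% of the MyoG list. RUNX1 scored 2619 (rank 1.53%) and c-Jun 962 (rank 9.80%). The 4 peak centres fell within 114 bp of one another, the tightest spacing among the 8 regions with all factors. Of the 8, it was also the 1 region in which every factor ranked in the top 10% of its list.

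The other such region of Mef2a, chr7:74516765-74519349, was led by RUNX1. Its RUNX1 peak was 2585 bp wide and scored 3100 (rank 0.979%), while MyoG scored 2070 (3.55%), c-Jun 583 (18.2%) and MyoD 317 (33.7%). The centres of RUNX1 and MyoD lay 448 bp apart there, and those of MyoD and MyoG 146 bp. A region on the opposite side, chr7:74535291-74536738, held c-Jun at 1608 (4.15%), RUNX1 at 737 (14.8%) and a weak MyoD peak at 69.0 (86.8%). It had no MyoG peak. By rank, RUNX1 stood ahead of MyoD in chr7:74516765-74519349 and chr7:74535291-74536738. In chr7:74529411-74531246 the order of RUNX1 (1.53%) and MyoD (1.90%) is not settled. MyoD there shared the score of 3100 with others of the 800 MyoD peaks tied at it, and all ties count toward its rank. Of the 3 myoblast factors, c-Jun had the best rank in 1 of these regions, chr7:74535291-74536738.

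Toward the low end of the Mef2a window, c-Jun bound strongly with little else. The c-Jun peak at chr7:74388313-74389672 scored 2166 (rank 2.22%), the highest c-Jun score of the locus. A MyoD peak scoring 132 (59.7%) touched it by 68 bp, with centres 1019.5 bp apart, so this pair counts as shared at 1 bp and not at 50% of the shorter peak. No MyoG peak met the c-Jun peak. Further out, MyoG led: the MyoG peak at chr7:74370595-74372277 scored 2513 (2.30%) beside MyoD at 608 (19.9%), with neither RUNX1 nor c-Jun.

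MyoD was strong at 1 more Mef2a site. At chr7:74559439-74560149 it scored 2091 (rank 4.26%), with MyoG at 662 (20%) and c-Jun at 58.4 (91.8%), and all centres lay within 48.0 bp. This region had no RUNX1 peak, although RUNX1 peaks scoring 64.8 and 80.7 stood on either side without touching it.

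Several RUNX1 peaks of Mef2a stood alone. Of the 10, 5 met no other list, against 25.2% of the RUNX1 list, with scores from 60.7 to 249. The strongest of these lay at chr7:74465165-74465853 (rank 39.9%). The RUNX1 peaks with a partner at this locus scored from 70.0 to 3100, so the 2 sets overlapped. In the whole RUNX1 list the medians were 106 alone and 216 with a partner. Mef2d had 1 lone RUNX1 peak, chr3:87971201-87972698 with a score of 169 (51.6%), and Mef2c had 0 of 4.

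Binding at Mef2d was gathered in the middle of the window. A stretch of 18.8 kb, chr3:87936838-87955655, held 25 of the 37 peaks (67.6%): 6 RUNX1, 6 MyoD, 5 c-Jun and 8 MyoG. It was found by sliding 20 kb along the locus after the peaks had been seen. All 7 of its regions held at least 2 factors, and the 4 regions of Mef2d with all factors were among them. The densest 20 kb of Mef2a held 12 of 38 peaks (31.6%) in 4 regions and that of Mef2c 10 of 33 (30.3%) in 3 regions.

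**Figure D2:**
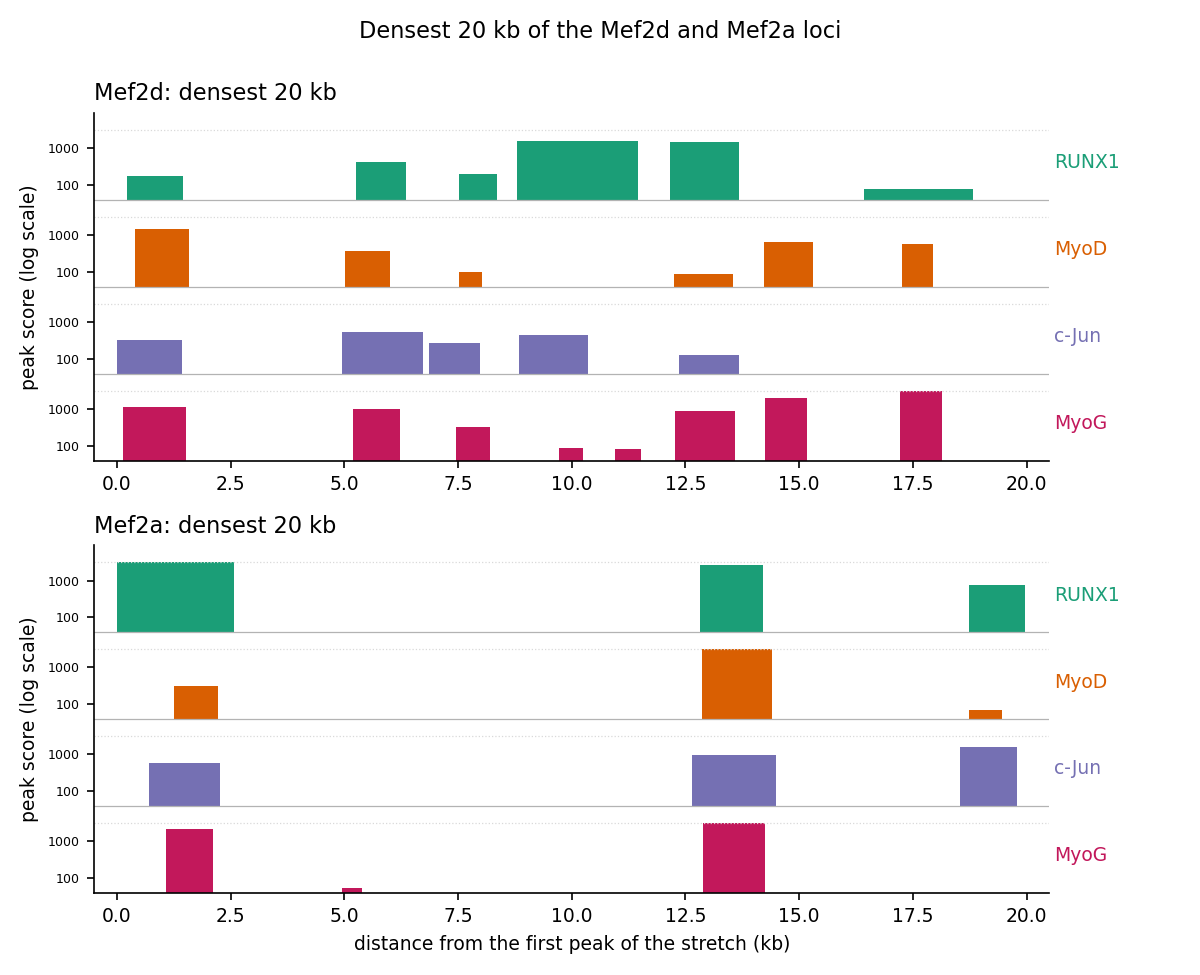
The densest 20 kb of Mef2d (top) and Mef2a (bottom), drawn to scale. The horizontal axis is the distance in kb from the first peak of the stretch, bar height is the peak score on a log scale from 40, each row is a peak list and the dotted line marks 3100. In Mef2d the tallest RUNX1 bars (1597 and 1502) lie to the left of the tallest MyoG bars (1992 and 3007), and in Mef2a tall bars of all 4 lists stack in 1 region.

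Along this stretch of Mef2d the leading factor changed from region to region. The first, chr3:87936838-87938415, was strongest for MyoD at 1497 (rank 7.08%, the highest MyoD score of the locus) and MyoG at 1110.3 (10.7%), with c-Jun at 316 (31.8%) and RUNX1 at 175 (50.4%). In the next, chr3:87941787-87943561, the scores were 432 for RUNX1 (25.8%), 369.5 for MyoD (30.1%), 532 for c-Jun (20%) and 997 for MyoG (12.5%). The third, chr3:87943690-87945197, was weaker throughout, with RUNX1 at 199 (46.4%), MyoD at 102 (69.5%), c-Jun at 275 (35.5%) and MyoG at 313 (36.6%).

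RUNX1 led the following pair. The RUNX1 peak at chr3:87945637-87948294 was 2658 bp wide, the widest of all members, and scored 1597 (rank 4.69%, the highest RUNX1 score of the locus). It met c-Jun at 443 (23.9%) and 2 weak MyoG peaks at 84.9 and 84.3 (77.2% and 77.5%), and it met no MyoD peak. In chr3:87948998-87950513, RUNX1 scored 1502 (5.28%) and MyoG 857 (15.1%), with MyoD at 88.1 (75.4%) and c-Jun at 125 (61.0%). All 4 centres of that region lay within 117 bp.

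The last pair of regions in the stretch was led by MyoG. At chr3:87951066-87952135 MyoG scored 1992 (rank 3.91%) and MyoD 652 (18.6%), with no other factor. At chr3:87953260-87955655 MyoG scored 3007 (1.37%, the highest of the locus) and MyoD 577 (20.9%), over a wide and weak RUNX1 peak at 81.0 (77.7%). The strongest RUNX1 peaks of Mef2d (1597 and 1502) and its strongest MyoG peaks (1992 and 3007) thus sat in different but neighbouring regions. In chr3:87948998-87950513 alone did both factors rank in the top 20%. The MyoG peak at 3007 still lay within a RUNX1 peak, and those ranked at 10.7% and 12.5% also met RUNX1.

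Outside the stretch, Mef2d had a region of myoblast factors alone. At chr3:87980660-87982582, c-Jun scored 800.5 (rank 12.5%), its highest score at the locus, and RUNX1 480.0 (23.5%), with centres 106 bp apart and with neither MyoD nor MyoG. The c-Jun peak with no other list and the highest score at Mef2d, chr3:87976521-87977664, scored 126 (60.7%). The MyoD peak that met no other list, chr3:87995068-87995791, scored 59.1 (94.6%).

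Mef2c had the fewest peaks near the top of their lists, but about as many as the other loci in the stronger 50%. Of its 33 peaks, 3 ranked in the top 10% of their list, against 10 of 38 at Mef2a and 5 of 37 at Mef2d. For all peaks of the 4 lists that share is 10.0% by construction, and over the 3 loci it was 16.7% (18 of 108). In the stronger 50% of each list (50% by construction) stood 60.2% of members (65 of 108), with 20 of 33 at Mef2c, 23 of 38 at Mef2a and 22 of 37 at Mef2d. The median rank was 34.1% at Mef2c, 36.8% at Mef2a and 36.6% at Mef2d. By width, 11 peaks of Mef2d ranked in the top 10% of their list, so the peaks there were wide more often than high-scoring.

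**Figure D3:**
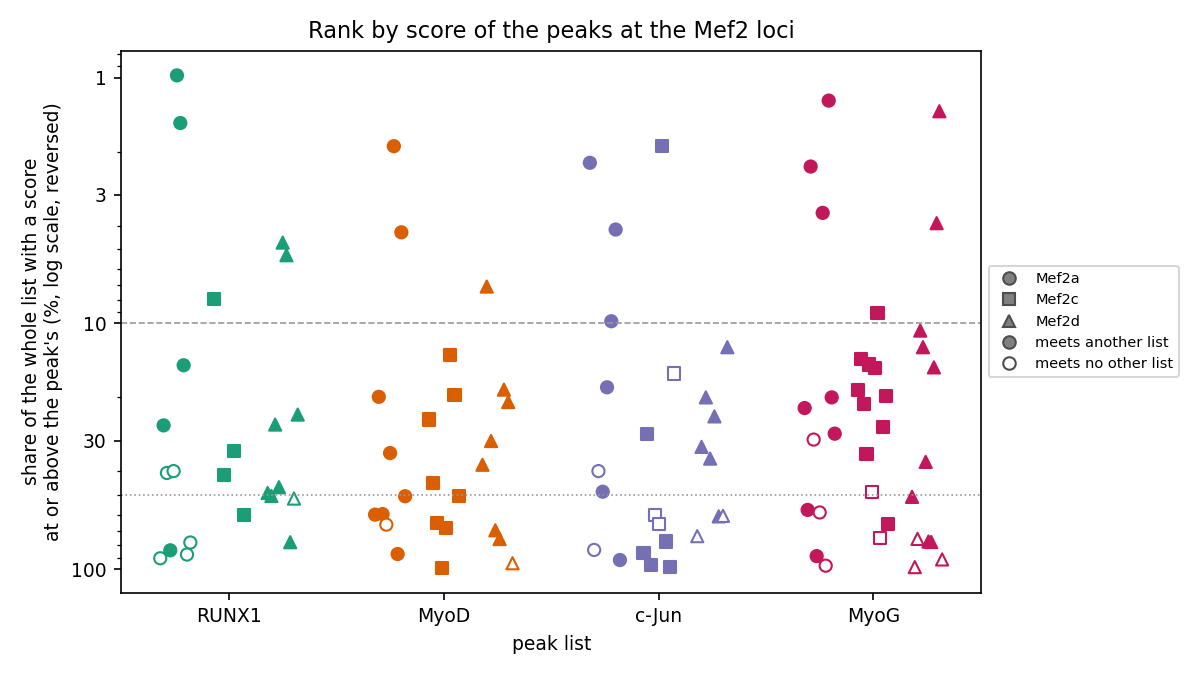
Rank of every member peak within its list. The vertical axis is the share of the whole list with a score at or above that of the peak (%, log scale, strongest at the top), symbols mark the locus, filled symbols meet at least 1 other list and open symbols none, and lines mark 10% and 50%. Every peak above the 10% line is filled, and Mef2a circles reach highest in the RUNX1, MyoD and MyoG lists.

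The best-ranked peak of Mef2c belonged to c-Jun. In chr13:83742772-83744629 c-Jun scored 2311 (rank 1.89%, the strongest c-Jun peak of the 3 loci), beside MyoD at 619 (19.5%), MyoG at 484 (26.4%) and RUNX1 at 321 (33.1%). MyoD, MyoG and RUNX1 were centred within 65.0 bp of one another there, and the c-Jun centre lay 190 bp from that of MyoD. The other region of Mef2c with all factors, chr13:83754808-83755898, was led by MyoG at 668 (19.8%), with MyoD at 175 (50.2%), RUNX1 at 131 (60.0%) and c-Jun at 81.9 (77.2%).

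At several further Mef2c sites MyoG had a better rank in its list than the myoblast factors there had in theirs. Its highest score at the locus, 1248 (rank 9.06%) at chr13:83653960-83654746, came with RUNX1 at 236 (41.4%) and c-Jun at 53.5 (96.4%), and without MyoD. At chr13:83619318-83619959 MyoG scored 878 (14.7%) over MyoD at 106 (67.8%). At chr13:83605346-83606901 it scored 347 (34.1%) over c-Jun at 66.4 (85.8%) and MyoD at 51.6 (99.1%). That MyoD score was close to the lowest of its list. The same order of ranks held at chr13:83589588-83590356 (MyoG 18.7%, MyoD 24.6%) and at chr13:83777069-83777774 (MyoG 65.4%, c-Jun 97.8%). The strongest MyoD peak of Mef2c, chr13:83642648-83643697, scored 902 (13.4%) and lay 17.0 bp from the centre of a MyoG peak at 851 (15.2%). A c-Jun peak at 367 (28.2%) overlapped it with its centre 501 bp off. The lists differ in length and cell stage, so these ranks stand side by side and measure no change.

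RUNX1 at Mef2c reached 1160.4 (rank 7.98%) at chr13:83597547-83599180, a peak of 1634 bp that covered 2 MyoD peaks at 210 and 115 and 2 MyoG peaks at 914 and 623. Each of the 4 RUNX1 peaks of the locus met a MyoG peak. The c-Jun list was the one with strong isolated binding at Mef2c: its peak at chr13:83791200-83792898 scored 656 (16.0%) and met no other list. It was the best-ranked member without any partner.

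Most MyoD peaks of myoblasts at the Mef2 loci were also MyoG peaks of myotubes, at about the rate of the whole list. The count was 21 of 25 (84.0%), against 77.1% of all MyoD peaks. It was 6 of 9 at Mef2a, 8 of 8 at Mef2c and 7 of 8 at Mef2d. The 4 MyoD peaks without MyoG were weak, with scores from 59.1 to 132, and the 21 with MyoG scored from 51.6 to 3100, so the 2 sets overlapped at the low end. In the whole MyoD list the medians were 232 with MyoG and 92.0 without. All 12 member peaks in the stronger 40% of the MyoD list met MyoG, and in the whole list 96.1% of the strongest 20% and 88.7% of the next 20% did.

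The centres of overlapping MyoD and MyoG peaks lay a median of 54.0 bp apart at the 3 loci (range 17.0 to 364, 21 pairs) and 53.5 bp apart in the whole lists. Those of c-Jun and MyoD were farther apart at the loci, with a median of 253 bp over 13 pairs (48.0 to 1019.5), against 110.5 bp in the whole lists. At Mef2c 0 of 4 c-Jun and MyoD pairs lay within 150 bp, and in the whole lists 60.2% of pairs did. With so few pairs, this difference was not tested.

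RUNX1 and c-Jun peaks met MyoG at 15 of 23 (65.2%) and 15 of 25 (60.0%), against 57.9% and 45.1% of their lists. Mef2a had the lowest shares for both, with 4 of 10 RUNX1 peaks and 4 of 8 c-Jun peaks. At Mef2c the counts were 4 of 4 and 6 of 9. At Mef2d, 7 of 9 RUNX1 peaks and 5 of 8 c-Jun peaks met MyoG. The 2 strongest c-Jun peaks of Mef2a, at 2166 and 1608, were without MyoG, as was the strongest of Mef2d at 800.5. At Mef2c the strongest c-Jun peak, at 2311, had MyoG.

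Among the myoblast factors, RUNX1 peaks met MyoD at 13 of 23 (56.5%, against 44.3% of the list) and c-Jun at 13 of 23 (56.5%, against 46.8%). MyoD peaks met RUNX1 at 14 of 25 (56.0%, against 42.5%) and c-Jun at 13 of 25 (52.0%, against 41.9%). c-Jun peaks met RUNX1 at 13 of 25 and MyoD at 13 of 25 (52.0% each, against 46.8% and 44.0%). All 6 shares lay above those of the lists, but they rest on few peaks, and the same regions enter several of them. Of the MyoD peaks, 2 of 25 (8%, against 14.1%) met no other list, the stronger at chr7:74433877-74434650 with a score of 111 (65.9%). Of the c-Jun peaks 7 of 25 (28.0%, against 33.8%) met none, with the strongest of Mef2a at chr7:74431990-74432975 scoring 236 (39.9%).

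**Figure D4:**
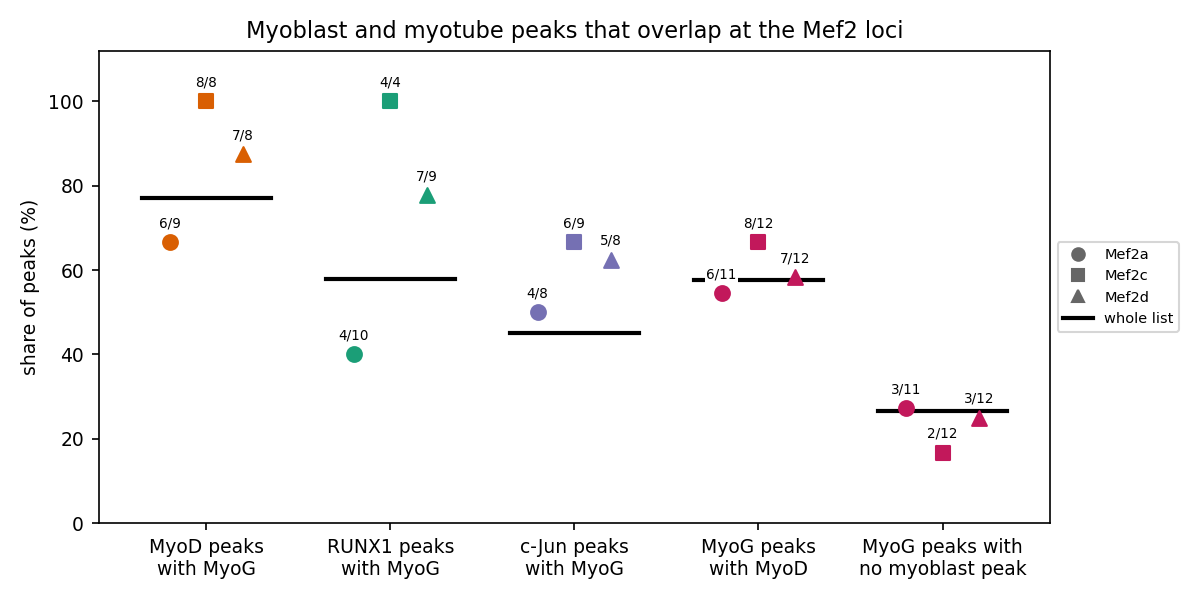
Share of peaks that overlap between myoblast and myotube lists at each Mef2 locus, with counts beside each symbol. The vertical axis is the share of peaks in percent, symbols mark the locus, and black bars give the share over the whole list. All 8 MyoD peaks of Mef2c met MyoG, whereas MyoD (6 of 9) and RUNX1 (4 of 10) at Mef2a lay below their lists. MyoG peaks with no myoblast peak lay near the bar at Mef2a and Mef2d and below it at Mef2c (2 of 12).

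From the side of the myotubes, 21 of 35 MyoG peaks (60.0%) met a MyoD peak of myoblasts, against 57.7% of the MyoG list. Another 6 (17.1%, against 15.7%) met RUNX1 or c-Jun but not MyoD, and 8 (22.9%, against 26.6%) met no myoblast peak. These 3 shares were close to those of the whole list. The 8 MyoG peaks with no myoblast peak were 3 at Mef2a, 2 at Mef2c and 3 at Mef2d, with scores from 51.8 to 417 and a median of 89.8. The 27 others ranged from 64.1 to 3100 with a median of 668, and the medians of the whole list were 95.8 and 279.6. The strongest MyoG peak with no myoblast factor at Mef2a lay at chr7:74374919-74375738 with a score of 417 (rank 29.7%). Those of Mef2c and Mef2d, chr13:83620151-83620791 and chr3:87909996-87910633, scored 198 (48.6%) and 89.4 (75.3%).

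Counted by region, 24 of 50 (48.0%) held both a myoblast factor and MyoG, 18 (36.0%) myoblast factors without MyoG and 8 (16.0%) MyoG alone. The whole lists gave 42.8%, 40.5% and 16.7%. The loci differed among themselves: myoblast factors without MyoG made up 10 of 20 regions at Mef2a, 3 of 14 at Mef2c and 5 of 16 at Mef2d. The 3 such regions of Mef2c held c-Jun alone, whereas the 10 of Mef2a comprised 5 bound by RUNX1 only, 2 by c-Jun only, 1 by MyoD only, 1 by MyoD and c-Jun and 1 by all 3 myoblast factors. Factor and cell stage changed together between the lists, so they cannot be told apart.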

How the data were processed

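The authors deposited 1 peak list per factor for RUNX1, MyoD, c-Jun and MyoG. Per the submitters' processing notes, CASAVA 1.7.0 and 1.8.2, Bowtie and the build mm9 were used. Peak names begin with MACS, per the file contents. MACS settings and version, the control used and any pooling of replicates: not given in the sources used here. Control samples entered no comparison, having no list. The unit used was the authors' score per peak, which ranks peaks within a deposited list only.

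Peaks overlapping each window by at least 1 bp were taken, with starts converted to 1-based. The 19 MyoD peaks on chromosome Y were left out. Peaks sharing at least 1 bp were called shared and merged into regions. Chromosomes up to their last peak were cut into windows of each locus's length as a description of the background. Overlap functions were tested on simulated peaks. With no replicates, no test was run. Members, windows and lists were chosen with earlier results of these data known. Individual regions were named by rule: all regions with the 4 factors, and at each locus the highest-scoring peak of each list, of each list without MyoG and of each list without any other. Other regions described were picked after their values were seen. Alternatives were keeping the stronger 50% of each list, requiring a shared span of 50% of the shorter peak, requiring centres within 150 bp, windows shortened by 10% at each end, and ranks by width or below the score of 3100. Python 3.11.15, numpy 2.4.6, pandas 2.3.3 and matplotlib 3.10.9 were used.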

Additional observations from a re-analysis of the deposited data

How the results depend on the processing

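Of 44 alternatives to the 14 main counts, 31 stayed within 1.5 times and 13 did not, all of them under a rule that keeps fewer peaks or pairs or that ranks by width. In the stronger 50% of each list, which holds fewer peaks, the peaks of the 4 lists fell to 23 at Mef2a, 20 at Mef2c and 22 at Mef2d. Regions with all 3 myoblast factors fell to 1 at Mef2c and 1 at Mef2d. At the 3 loci, 9 RUNX1, 12 MyoD and 7 c-Jun peaks then met MyoG, and 12 MyoG peaks met MyoD. Joined only by centres within 150 bp, 1 region with all 3 myoblast factors was left at each of Mef2a, Mef2c and Mef2d, that of Mef2c by links through RUNX1. Ranked by width, 11 Mef2d peaks stood in the top 10% of their list instead of 5. A shared span of 50% and the shortened windows moved none of these main counts by over 1.5 times. Among 72 alternatives for single lists and loci, 22 moved further than that, including the MyoD peaks of Mef2c, which fell from 8 to 4 in the shortened window. No paired analysis was possible because each factor has a single list that keeps no replicates apart, so none could be left out. Depth is unknown, so weak binding below the lowest listed score of 50.01 was not seen.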
